A study of Mus musculus with 6 samples.

Results

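RNA levels of p53 and its direct targets were compared between vascular smooth muscle cells (VSMCs) with and without SMYD2. The members were the entries of the expression table whose symbol was *Trp53*, the mouse gene of p53, or that of 1 of 9 known p53 targets, namely *Cdkn1a*, *Mdm2*, *Ccng1*, *Bax*, *Bbc3*, *Phlda3*, *Eda2r*, *Zmat3* and *Sesn2*. All 10 were found among the 18112 genes of the table, 1 entry each.

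p53 is a transcription factor that is kept low by the ubiquitin ligase MDM2 and accumulates under DNA damage and other stress. It then activates genes for cell cycle arrest, cell death, repair and metabolism, and several of its targets, *Mdm2* among them, act back on p53 itself. SMYD2 is a lysine methyltransferase of histones and of other proteins, and methylation of p53 by SMYD2 is known to restrain its activity. Methylation, p53 protein and binding of p53 to DNA were not measured in these libraries, which hold RNA alone.

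The cells were primary VSMCs grown from the aortas of C57BL/6 mice aged 8 to 10 weeks, in 3 libraries from *Smyd2* fl/fl and 3 from *Smyd2* SMC-/- mice. Both groups carry loxP sites around exon 2 of both *Smyd2* alleles, and *Smyd2* SMC-/- mice carry in addition a *Tagln-Cre* transgene, in which the promoter of *Tagln* (SM22α) drives Cre, while the fl/fl littermates served as controls. Controls with Cre and without loxP sites were not analysed here, so that deletion of *Smyd2* and presence of Cre cannot be told apart. The sources differ on the culture, since the labels give passage 6 in medium with 10% serum and the methods give passage 4 with overnight starvation. They differ likewise on the RNA, for which the labels name Promega and Illumina TruSeq kits and the methods name TRIzol. Poly-A RNA was sequenced, and the level of a gene is given as FPKM, a fragment number corrected for transcript length and library depth, so that levels of different genes can be set side by side. Steps between low FPKM values put the depth at about 17750000 to 20750000 fragments per library, an approximate figure that lay between 16250000 and 24250000 under other assumed transcript lengths.

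The libraries of replicate 1 stood apart from the rest in both genotypes. Over the 12565 genes tested, Spearman's rho across genes was 0.992 between replicates 2 and 3 of *Smyd2* fl/fl and 0.989 between those of *Smyd2* SMC-/-, and between 0.920 and 0.934 wherever replicate 1 was compared within a genotype. Results are therefore given over all libraries and, for the members, also with the replicate number as a block and in replicates 2 and 3 alone. It is not stated whether the replicates came from separate animals, nor what a shared replicate number marks. The p-values measure the spread between these samples, which may be technical.

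*Smyd2* (NCBI Gene 226830) was read first as a check of the labels. In fl/fl cells 7.87, 3.10 and 3.0 FPKM were measured in replicates 1, 2 and 3, and in SMC-/- cells 1.67, 0.40 and 0.80 FPKM. Each SMC-/- library lay below each fl/fl library, and replicate 1 was the highest in both groups. With a log2 fold change of −1.48, the adjusted p was 0.105 in limma with Benjamini-Hochberg adjustment over all genes tested, and 0.0189 with the replicate block, within a range of 0.00126 to 0.305 over all alternatives. These levels stand for only about 13 to 242 fragments per library. Reads from exons other than the deleted one can remain in SMC-/- cells, and in bulk RNA fewer cells of a type and less RNA per cell cannot be told apart.

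Of the smooth muscle markers, *Acta2*, *Tagln*, *Cnn1* and *Smtn* were present, whereas *Myh11* and *Des*, which mark mature contractile cells, stayed at or below 0.22 FPKM in all 6 libraries. *Acta2*, the gene of smooth muscle actin, had 761, 682 and 683 FPKM in fl/fl and 201, 268 and 262 FPKM in SMC-/- cells. It was thus lower in each SMC-/- library, with a log2 fold change of −1.55 and an adjusted p of 0.00803 in limma, which was 0.0533 to 0.0615 without fl/fl replicate 2, fl/fl replicate 3 or SMC-/- replicate 3. *Tagln*, whose promoter drives Cre, had 80.5, 79.1 and 70.3 FPKM in fl/fl and 12.5, 87.3 and 57.1 FPKM in SMC-/- cells, so that only SMC-/- replicate 1 stood far below the others (adjusted p = 0.496 in limma). The 6 smooth muscle markers summed to 918, 819 and 811 FPKM in fl/fl and to 262, 423 and 370 FPKM in SMC-/- replicates 1, 2 and 3. *Smtn* had 55.0, 52.0 and 52.8 FPKM and 45.9, 63.1 and 46.9 FPKM (adjusted p = 0.900 in limma), and *Cnn1* had 21, 4.86 and 5.11 FPKM and 2.70, 5.07 and 4.32 FPKM (0.399), so that in replicates 2 and 3 the lower sum came mainly from *Acta2*, while the list had a median of −0.076 there. The part of these markers in the results on the p53 targets was not tested.

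*Trp53* (NCBI Gene 22059, chromosome 11 of GRCm38 from 69580359 to 69591873 on the plus strand) was lower in every SMC-/- library than in any fl/fl library. Its level was 171, 149 and 144 FPKM in fl/fl replicates 1, 2 and 3, against 102, 98.5 and 93.4 FPKM in SMC-/- replicates 1, 2 and 3. Replicate 1 was the highest in both genotypes, yet the gap between the genotypes was wider than the spread within either. The mean was 155 ± 13.9 FPKM in fl/fl and 98.0 ± 4.43 FPKM in SMC-/- cells (SD, n = 3 each), a ratio of 0.633. On the log2(FPKM + 1) scale the log2 fold change was −0.65 (standard error 0.121, 95% interval −0.94 to −0.36). In limma the adjusted p was 0.0504, just outside the threshold of 0.05, and it was 0.0266 with the replicate block and 0.00541 in replicates 2 and 3 alone. Over all alternatives this p ran from 0.00541 to 0.230. The two-sided exact permutation test of 3 against 3 gave p = 0.1, the smallest it can give. An annotated pseudogene, *Trp53-ps*, has no entry in the table, and fragments that it shares with *Trp53* could have been counted to the latter.

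*Cdkn1a* (NCBI Gene 12575, chromosome 17 from 29090976 to 29100727, plus strand) encodes p21, the inhibitor of cyclin-dependent kinases through which p53 arrests the cell cycle. It had 159, 162 and 154 FPKM in fl/fl replicates 1, 2 and 3, against 223, 252 and 222 FPKM in SMC-/- replicates 1, 2 and 3. Here the libraries of replicate 1 did not stand apart, and each SMC-/- library was above each fl/fl library. The mean was 158 ± 3.76 FPKM in fl/fl and 232 ± 16.9 FPKM in SMC-/- cells (SD, n = 3 each), a ratio of 1.47, with a log2 fold change of 0.55 (standard error 0.115, 95% interval 0.27 to 0.82). In limma the adjusted p was 0.0638, and it was 0.0371 with the replicate block and 0.0104 in replicates 2 and 3 alone, in a range of 0.0104 to 0.234 over all alternatives. The two-sided exact permutation test gave its smallest p of 0.1.

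The factor and its best known target thus lay on opposite sides. FPKM of *Cdkn1a* divided by that of *Trp53* was 0.933, 1.08 and 1.07 in fl/fl and 2.18, 2.56 and 2.38 in SMC-/- replicates 1, 2 and 3. The transcripts were about level in each fl/fl library, and *Cdkn1a* was the more abundant in each SMC-/- library. The ratio restates the values of both genes given above, and its separation is not a further result.

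**Figure D1:**
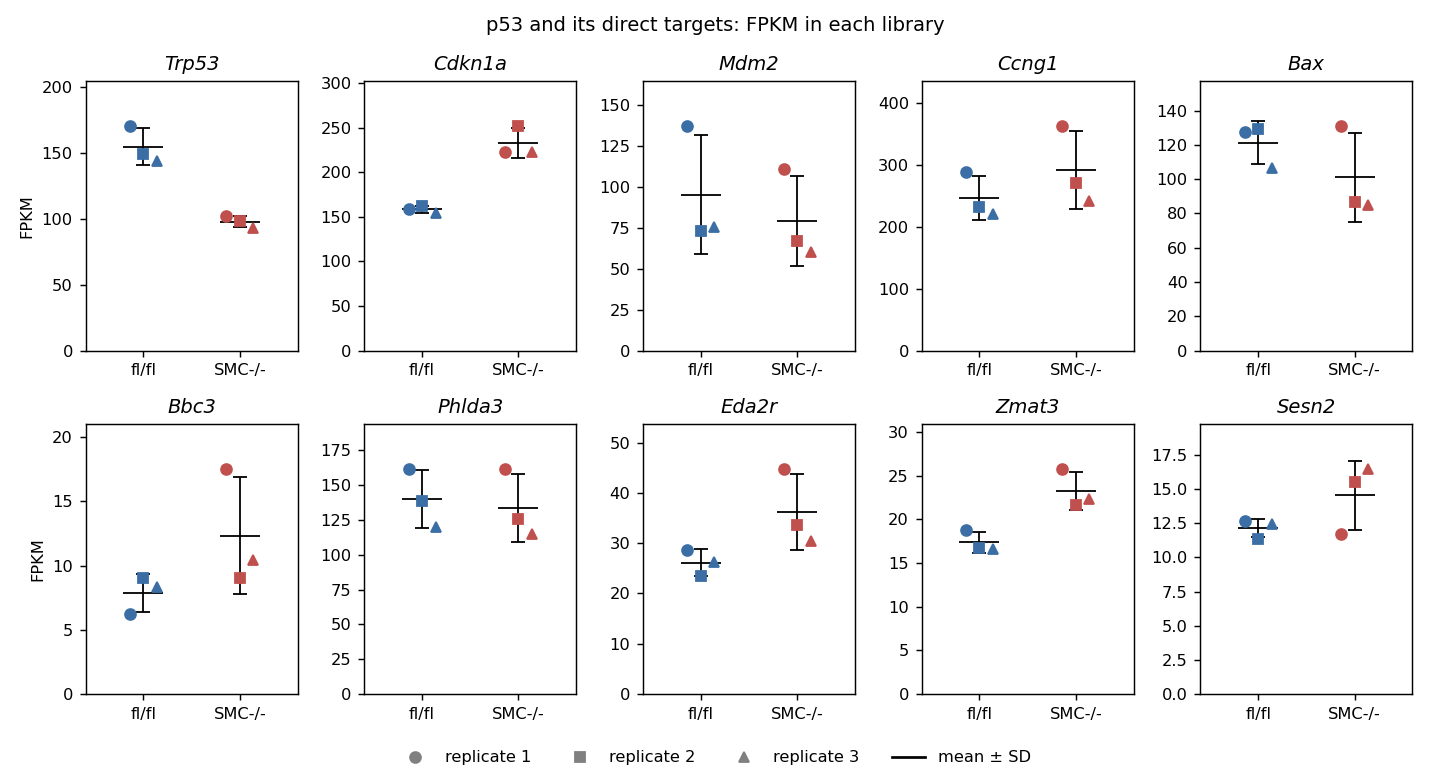
Level of each of the 10 genes in FPKM (vertical axis, from 0) in the 3 *Smyd2* fl/fl libraries (blue) and the 3 *Smyd2* SMC-/- libraries (red), with 1 symbol shape per replicate number and the mean ± SD in black. *Trp53* lay between 93.4 and 102 FPKM in SMC-/- and between 144 and 171 FPKM in fl/fl cells, and *Mdm2* was highest in replicate 1 of both genotypes.

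p53 binds DNA as a tetramer to a pair of the p53 consensus decamer, and promoter windows of the members are shown where such a pair was found. Only sequence close to start sites was searched, so that a member without a pair there may have one elsewhere. RefSeq promoters (GRCm38.p6, 250 bases before to 50 after a start site) were at hand for 9 of the 10 members, in 12 windows, and were searched for 2 decamers 0 to 13 bases apart. The decamer reads alike on both strands, so that 1 search covers both. A pair with at most 1 mismatch was found in a window of 3 members, *Cdkn1a*, *Ccng1* and *Bax*, against 1.09% of all 32851 windows, and the decamers are in capitals below, each given on the strand of its gene.
*Cdkn1a*, chr17:29090902-29090941, plus strand: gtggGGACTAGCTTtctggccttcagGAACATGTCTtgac
*Ccng1*, chr11:40755458-40755485, minus strand: ggccAGACCTGCCCGGGCAAGCCTtggc
*Bax*, chr7:45467086-45467114, minus strand: tgacAAGCATATCCcAGGCAAGCTTtgaa

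The pair in the *Cdkn1a* window had 0 mismatches, with 12 bases between the decamers, which 0.0731% of all windows also reached. Those of *Ccng1* and *Bax* had 1 mismatch each, with 0 and 1 bases between the decamers. A match of letters is a description of the sequence, and binding at these places was not measured. By point estimate, *Cdkn1a* and *Ccng1* had a log2 fold change above 0 (0.55 and 0.23) and *Bax* one below 0 (−0.29). For *Ccng1* and *Bax* the groups overlapped, and the adjusted p was 0.575 and 0.489 in limma over all libraries. Whether the genes with such a pair share a direction is therefore not settled by these values.

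*Mdm2* and *Ccng1* are targets that act back on p53. *Mdm2* (NCBI Gene 17246) had 137, 73.1 and 75.7 FPKM in fl/fl replicates 1, 2 and 3, against 111, 67.0 and 60.4 FPKM in SMC-/- replicates 1, 2 and 3. Its level followed the replicate number more than the genotype: replicate 1 was 1.84 times the mean of the other two in fl/fl and 1.74 times in SMC-/- cells, and the groups overlapped. Within each same-numbered pair the SMC-/- library was the lower one, with differences of −0.30, −0.12 and −0.32 on the log2 scale. Over all libraries the log2 fold change was −0.25 with a standard error of 0.324 and an adjusted p of 0.731 in limma, and without fl/fl replicate 1 its sign turned, to 0.042. The adjusted p was 0.156 with the block and 0.153 in replicates 2 and 3 alone (log2 fold change −0.22), in a range of 0.103 to 0.962 over the alternatives. *Ccng1* (NCBI Gene 12450), the gene of cyclin G1, which guides a phosphatase to MDM2, had 288, 232 and 221 FPKM in fl/fl and 363, 271 and 242 FPKM in SMC-/- replicates 1, 2 and 3. It was again highest in replicate 1, the groups overlapped, and the SMC-/- library was the higher one in each pair (log2 fold change 0.23, standard error 0.195, adjusted p = 0.575 in limma, 0.189 with the block, 0.298 in replicates 2 and 3 alone and 0.162 to 0.838 over the alternatives).

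*Bax* and *Bbc3* act in the mitochondrial route of cell death, where BAX opens the outer membrane and PUMA, the product of *Bbc3*, sets BAX free from its inhibitors. *Bax* (NCBI Gene 12028) had 128, 129 and 107 FPKM in fl/fl replicates 1, 2 and 3, against 131, 86.7 and 85.2 FPKM in SMC-/- replicates 1, 2 and 3. SMC-/- replicate 1 was the highest of the 6 and the remaining SMC-/- libraries the lowest, so that the groups overlapped. Over all libraries the log2 fold change was −0.29 with a standard error of 0.199 and an adjusted p of 0.489 in limma, or 0.240 with the block, and in replicates 2 and 3 alone it was −0.45 (adjusted p = 0.0307 in limma, the lowest of a range up to 0.815 over the alternatives).

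*Bbc3* (NCBI Gene 170770) was the least abundant member by mean FPKM in each genotype. It had 6.19, 9.04 and 8.36 FPKM in fl/fl and 17.5, 9.06 and 10.5 FPKM in SMC-/- replicates 1, 2 and 3. Its groups were apart by only 0.02 FPKM, between 9.04 and 9.06, and SMC-/- replicate 1 stood well above the rest. At about 207 to 533 fragments per library, its counting error alone came to about 6.95% in the library with the fewest, which is more than the gap between the groups. Its log2 fold change over all libraries was 0.55, with a standard error of 0.264 and an adjusted p of 0.302 in limma, or 0.244 with the block, and in replicates 2 and 3 alone it was 0.15 (adjusted p = 0.390, in a range of 0.166 to 0.483 over the alternatives).

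*Eda2r* (NCBI Gene 245527, on chromosome X) encodes a receptor of the TNF receptor family that binds the ligand EDA-A2. It had 28.7, 23.4 and 26.2 FPKM in fl/fl replicates 1, 2 and 3, against 44.7, 33.6 and 30.3 FPKM in SMC-/- replicates 1, 2 and 3. Each SMC-/- library lay above each fl/fl library, with replicate 1 the highest in both groups. This gave a log2 fold change of 0.44 with a standard error of 0.175. Its adjusted p in limma was 0.226, and it was 0.0751 with the replicate block and 0.0442 in replicates 2 and 3 alone, in a range of 0.0325 to 0.465 over the alternatives.

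*Zmat3* and *Sesn2* act on RNA and on metabolism. *Zmat3* (NCBI Gene 22401), the gene of a zinc finger protein that binds RNA, had 18.8, 16.7 and 16.6 FPKM in fl/fl replicates 1, 2 and 3, against 25.8, 21.6 and 22.3 FPKM in SMC-/- replicates 1, 2 and 3. The groups did not overlap, and the pairs differed by nearly the same amount, 0.44, 0.35 and 0.41 on the log2 scale. The log2 fold change of 0.40 (standard error 0.128) had an adjusted p of 0.155 in limma, 0.0573 with the replicate block and 0.0232 in replicates 2 and 3 alone, in a range of 0.0232 to 0.374 over the alternatives.

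*Sesn2* (NCBI Gene 230784), whose product sestrin 2 restrains the growth kinase mTORC1 and is also induced by stress pathways other than p53, had 12.7, 11.4 and 12.5 FPKM in fl/fl and 11.7, 15.5 and 16.5 FPKM in SMC-/- replicates 1, 2 and 3. SMC-/- replicates 2 and 3 were the highest of the 6 libraries, but SMC-/- replicate 1 lay among the fl/fl libraries. Over all libraries the log2 fold change was 0.23 with a standard error of 0.161 and an adjusted p of 0.492 in limma, or 0.332 with the block, and it was 0.40 in replicates 2 and 3 alone (adjusted p = 0.0284, in a range of 0.0284 to 0.833 over the alternatives).

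*Phlda3* (NCBI Gene 27280), the gene of a protein that competes with the kinase AKT at the membrane, differed least. It had 161, 139 and 120 FPKM in fl/fl and 161, 125 and 115 FPKM in SMC-/- replicates 1, 2 and 3. Both groups covered nearly the same range, with replicate 1 the highest in each. A log2 fold change of −0.07 was found (standard error 0.181, 95% interval −0.50 to 0.37, adjusted p = 0.882 in limma, 0.660 with the block, 0.558 in replicates 2 and 3 alone and 0.453 to 0.993 over the alternatives), and its sign changed with scaling, since it was 0.055 after rescaling to TPM.

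**Figure D2:**
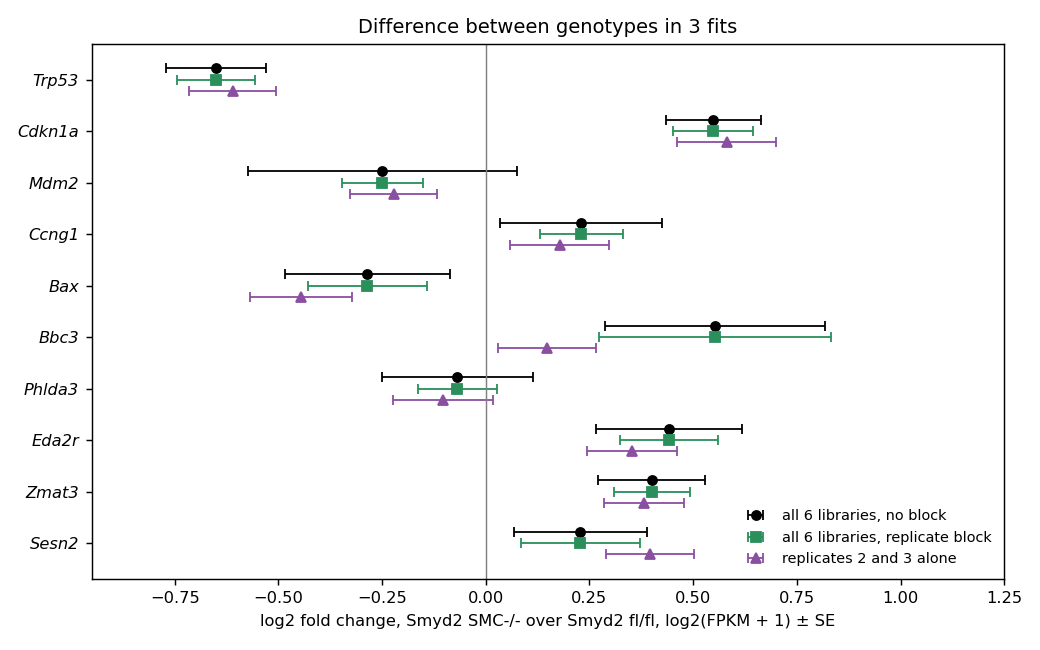
Log2 fold change of the 10 genes on the log2(FPKM + 1) scale, *Smyd2* SMC-/- over *Smyd2* fl/fl, with its standard error, from limma over all 6 libraries without a block (black), with the replicate number as a block (green) and in replicates 2 and 3 alone (purple). The standard error of *Mdm2* went from 0.324 without the block to 0.0974 with it, and *Trp53* is farthest to the left in each fit.

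Over all 6 libraries 0 of the 10 members were lower and 0 were higher at an adjusted p under 0.05 in limma, where 1.21% of the 12565 genes tested were lower and 1.23% were higher. By an unadjusted p under 0.05, 1 member was lower (*Trp53*) and 3 were higher (*Cdkn1a*, *Eda2r* and *Zmat3*), against 11.2% of all genes lower and 9.16% higher. With the replicate number as a block, 1 member was lower (*Trp53*) and 1 was higher (*Cdkn1a*) at an adjusted p under 0.05, against 5.72% of all genes lower and 4.72% higher. In replicates 2 and 3 alone, 2 members were lower (*Trp53* and *Bax*) and 4 were higher (*Cdkn1a*, *Eda2r*, *Zmat3* and *Sesn2*), against 17.2% of all genes lower and 11.9% higher.

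Without any model, the groups did not overlap for 1 member that was lower (*Trp53*) and 4 that were higher (*Cdkn1a*, *Bbc3*, *Eda2r* and *Zmat3*) in SMC-/- cells, against 15.0% of all genes lower and 13.1% higher. Within the same-numbered pairs, 2 members were lower in all 3 (*Trp53* and *Mdm2*) and 5 were higher in all 3 (*Cdkn1a*, *Ccng1*, *Bbc3*, *Eda2r* and *Zmat3*), against 29.3% of all genes lower and 25.8% higher. Set against all genes, the members that were lower were about as many as the background gives. Those that were higher exceeded it in most of these counts, but in a list of only 10 genes and without a test of that difference. These counts draw on the same libraries and mostly the same genes, so that they are not separate results. The members were also chosen with earlier results of these data known. The members had a median log2 fold change of 0.23, against −0.018 over all genes tested.

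**Figure D3:**
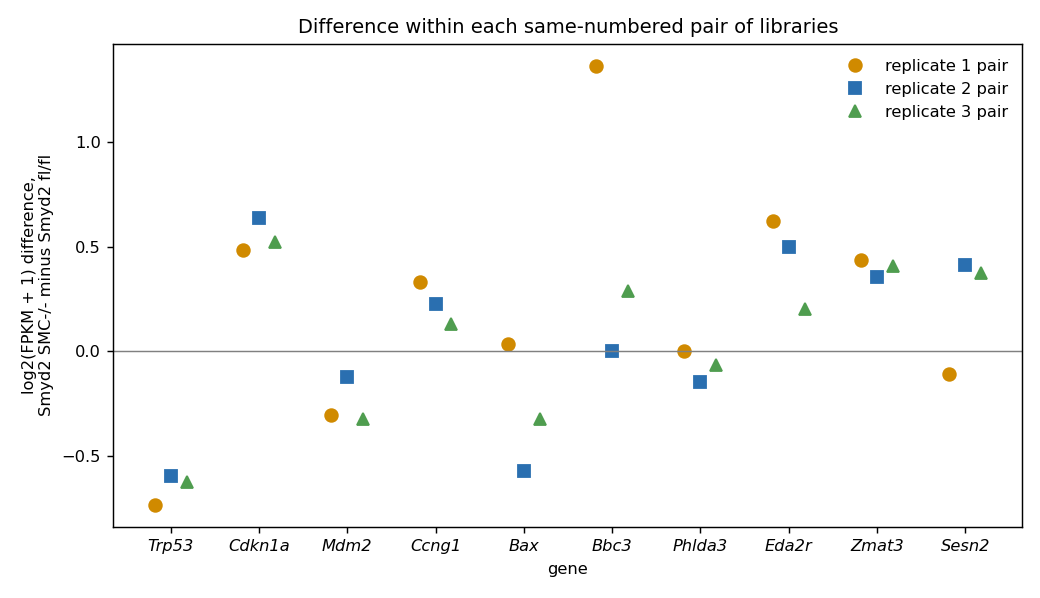
Difference in log2(FPKM + 1) between the *Smyd2* SMC-/- and the *Smyd2* fl/fl library of the same replicate number (vertical axis) for each gene, with replicate 1 as circles, replicate 2 as squares and replicate 3 as triangles. *Trp53* lay between −0.73 and −0.60 and *Cdkn1a* between 0.48 and 0.64 in the 3 pairs, whereas *Bbc3* reached 1.36 in the replicate 1 pair and was 0.0029 in the replicate 2 pair.

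Scaling moved these values. After each library was rescaled to TPM, the median of all genes tested was 0.095 in place of −0.018 on the log2 scale, a shift of 0.11 upward. On that scale the difference was −0.53 for *Trp53* (adjusted p = 0.0888 in limma) and 0.67 for *Cdkn1a* (adjusted p = 0.0326 in limma), inside the ranges given above. Of all genes called, 71.4% were higher in SMC-/- cells after rescaling, against 50.3% before it. *Phlda3* was the only member whose direction changed with TPM, and 0 members changed direction with quantile normalization.

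Levels of the members spanned a wide range. In fl/fl cells the order of the mean FPKM was *Ccng1* (247), *Cdkn1a* (158), *Trp53* (155), *Phlda3* (140), *Bax* (121), *Mdm2* (95.3), *Eda2r* (26.1), *Zmat3* (17.4), *Sesn2* (12.2) and *Bbc3* (7.86). From *Cdkn1a* through *Mdm2* the values of each gene overlapped with those of the next in order, although *Cdkn1a* and *Trp53* lay wholly above *Bax* and *Mdm2*. The remaining steps were wider than the spread. In SMC-/- cells *Trp53* stood after *Bax*, with means of 98.0 and 101 FPKM and overlapping values, *Cdkn1a* overlapped with *Ccng1* in place of *Trp53*, and *Sesn2* overlapped with *Bbc3*. By mean FPKM over the 6 libraries, *Ccng1* held place 222 and *Bbc3* place 6576 among the 18112 genes.

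The 3 genes most like *Trp53* over the 6 libraries, by Pearson's r of log2(FPKM + 1), were *Cluap1*, *Ddx56* and *Sfr1*, with r of 0.999, 0.999 and 0.996 and a Spearman's rho of 1 each. *Sfr1*, for example, had 205, 179 and 177 FPKM in fl/fl and 124, 114 and 105 FPKM in SMC-/- replicates 1, 2 and 3, and an adjusted p of 0.0457 in limma. The call was lost without the filter (0.0595), with TPM (0.0774), with quantile normalization (0.0613) and when any library but SMC-/- replicate 1 was left out (0.0730 to 0.212). The adjusted p of *Cluap1* was 0.0802, or 0.0430 with the block, and that of *Ddx56* 0.18. Those most like *Cdkn1a* were an unnamed gene listed as BGI_novel_G000573, *Mpp2* and *Zdhhc14*, with r of 0.995, 0.991 and 0.990 and a rho of 0.841, 0.771 and 0.943. Each was higher, and limma gave them adjusted p-values of 0.0488, 0.0422 and 0.0123, which passed in 7, 6 and 9 of 13 alternatives and reached 0.187, 0.182 and 0.0889 at most. These r were the highest among 12565 genes over 6 libraries that share the genotype contrast, and are given as a description.

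The wider p53 pathway was read from 4 further lists, of 19 upstream regulators, 13 targets in arrest and DNA repair, 12 in cell death and 18 in metabolism, redox control and secretion, and all 62 genes were tested. Over all libraries 1 of them was lower (*Plk2*) and 1 was higher (*Tnfrsf10b*) at an adjusted p under 0.05 in limma, beside 1.21% and 1.23% of all genes. With the replicate block 4 were lower (*Plk2*, *Usp7*, *Kat5* and *Sesn1*) and 4 higher (*Tnfrsf10b*, *Btg2*, *Pmaip1* and *Lif*), beside 5.72% and 4.72%. In replicates 2 and 3 alone 10 were lower and 12 higher, beside 17.2% and 11.9%. For the counts by unadjusted p in the lists below, the shares over all genes are 11.2% lower and 9.16% higher. Over the 62 genes the median was 0.020 on the log2 scale, close to that of all genes, with 29 below 0 and 33 above 0.

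Among the upstream regulators, 0 of 19 passed the test over all libraries in limma, while an unadjusted p under 0.05 was reached by 2 that were lower and 1 that was higher, against 11.2% and 9.16% of all genes. The most abundant were the lysine methyltransferase genes *Ehmt2*, with 67.7 ± 18.1 FPKM in fl/fl and 56.0 ± 7.75 in SMC-/- cells, and *Kmt5a*, with 47.5 ± 11.7 and 55.2 ± 12.1 FPKM (SD, n = 3 each). Both overlapped between the groups, and limma gave an adjusted p of 0.588 and 0.665. *Usp7*, the gene of a deubiquitinase of MDM2 and p53, had 38.6, 29.5 and 29.4 FPKM in fl/fl and 26.0, 21.4 and 22.8 FPKM in SMC-/- cells (log2 fold change −0.45, adjusted p = 0.178 in limma, 0.0498 with the block and 0.0185 to 0.443 over the alternatives). *Kat5*, the gene of the acetyltransferase TIP60, had 31.8, 25.5 and 26.3 FPKM and 24.8, 15.1 and 13.8 FPKM (log2 fold change −0.65, adjusted p = 0.192 in limma, 0.0476 with the block and 0.00140 to 0.485 over the alternatives). *Setd7*, a lysine methyltransferase gene and the higher one of the 3 by unadjusted p, had 16.7, 17.7 and 20.1 FPKM and 27.8, 25.2 and 24.0 FPKM (log2 fold change 0.48, adjusted p = 0.112 in limma, 0.0375 in replicates 2 and 3 alone and 0.0303 to 0.298 over the alternatives). None of these 3 genes overlapped between the groups, and all were named after their values were seen, as were *Sesn1*, *Btg2*, *Pmaip1* and *Lif*.

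Among the other targets in arrest and repair, *Plk2*, the gene of a polo-like kinase, fell. It had 93.5, 60.4 and 60.2 FPKM in fl/fl and 31.5, 30.3 and 27.7 FPKM in SMC-/- replicates 1, 2 and 3, each below all fl/fl libraries. A log2 fold change of −1.20 with a standard error of 0.196 had an adjusted p of 0.0373 in limma, in a range of 0.000420 to 0.170 over the alternatives. The call was lost when replicate 2 or 3 of either genotype was left out (adjusted p from 0.115 to 0.170), with TPM (0.0535) and without the filter on low FPKM (0.0572). *Pcna*, the gene of the replication clamp, had 75.3, 74.1 and 71.9 FPKM and 53.9, 63.2 and 46.1 FPKM, with no overlap (log2 fold change −0.44, adjusted p = 0.159 in limma). *Btg2*, an antiproliferative gene, had 13.9, 19.0 and 16.9 FPKM and 30.9, 30.4 and 25.4 FPKM, with no overlap either (log2 fold change 0.77, adjusted p = 0.0615 in limma, 0.0387 with the block and 0.00981 to 0.208 over the alternatives). Of the 13 genes 3 were lower and 1 was higher by an unadjusted p under 0.05, and 5 were lower and 1 was higher without overlap, beside 15.0% and 13.1% of all genes for the latter. The median of the list was −0.12, and 1 was lower and 3 were higher in replicates 2 and 3 alone, beside 17.2% and 11.9% of all genes. Over the 62 genes of the 4 pathway lists together, 10 were lower and 11 were higher without overlap.

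Among the other cell death targets, *Tnfrsf10b*, the mouse gene of a TRAIL receptor, rose. It had 18.9, 19.2 and 21.7 FPKM in fl/fl and 39.5, 33.6 and 32.0 FPKM in SMC-/- replicates 1, 2 and 3, each above all fl/fl libraries. A log2 fold change of 0.78 with a standard error of 0.133 had an adjusted p of 0.0420 in limma, in a range of 0.00367 to 0.175 over the alternatives. The call was lost when any library but SMC-/- replicate 1 was left out (adjusted p from 0.0711 to 0.175) and without the filter on low FPKM (0.0562). *Pmaip1*, the gene of NOXA, had 7.97, 9.56 and 7.69 FPKM and 12.2, 14.2 and 14.6 FPKM, with no overlap (log2 fold change 0.64, adjusted p = 0.0757 in limma, 0.0406 with the block and 0.00683 to 0.285 over the alternatives). The most abundant of this list were *Ei24*, with 49.2 ± 1.07 FPKM in fl/fl and 59.7 ± 2.32 in SMC-/- cells, and *Trp53inp1*, with 29.5 ± 8.48 and 55.6 ± 17.7 FPKM (SD, n = 3 each). Their log2 fold change was 0.27 and 0.89 and their adjusted p 0.218 and 0.163 in limma, and the groups overlapped for neither. In replicates 2 and 3 alone these values were 0.32 and 0.40, with an adjusted p of 0.0437 and 0.0223, in ranges up to 0.493 and 0.331 over the alternatives. Of the 12 genes 5 were below 0 and 7 above 0, and an unadjusted p under 0.05 was reached by 1 that was lower and 4 that were higher, against 11.2% and 9.16% of all genes. The lower one was *Dram1*, with 3.19, 10.1 and 9.12 FPKM and 2.07, 2.04 and 2.57 FPKM and no overlap (log2 fold change −1.27, adjusted p = 0.133 in limma, 0.000197 in replicates 2 and 3 alone and up to 0.335 over the alternatives). *Perp*, lower in each pair, was at −0.96 (adjusted p = 0.383, in a range of 0.0673 to 0.636), and *Fas* at −0.30, or −0.58 in replicates 2 and 3 alone (adjusted p = 0.462 and 0.00918 in limma, up to 0.781 over the alternatives). These 3 genes were chosen for the text with their values known.

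**Figure D4:**
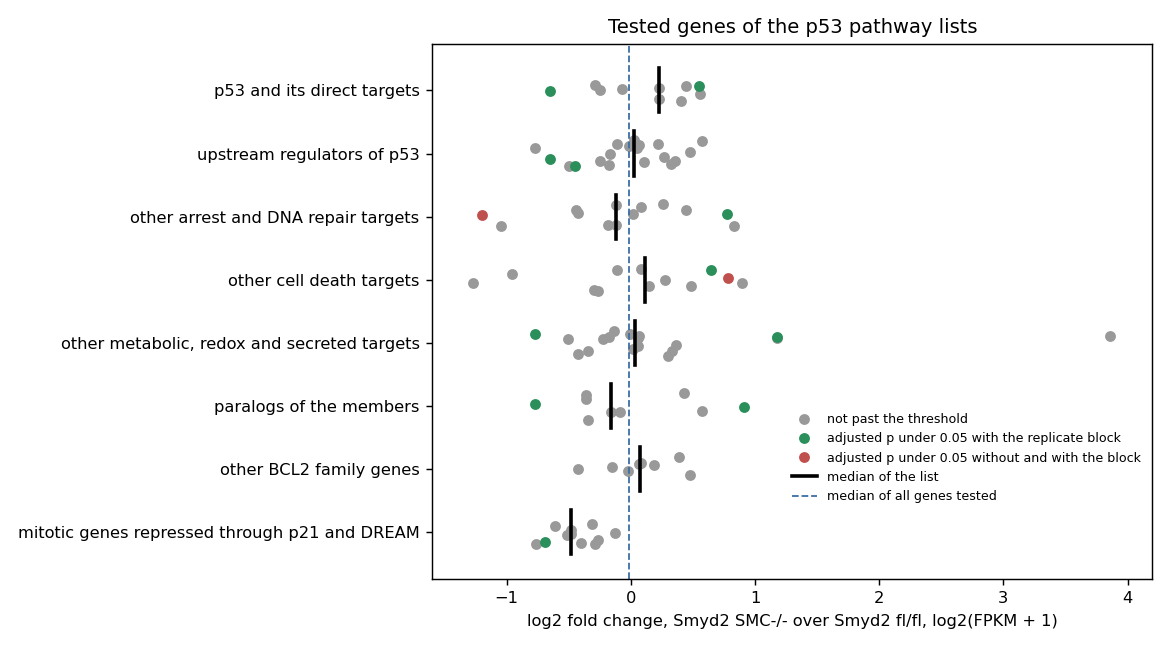
Log2 fold change of each tested gene (horizontal axis, *Smyd2* SMC-/- over *Smyd2* fl/fl on the log2(FPKM + 1) scale) in 8 lists of the p53 pathway, with the median of each list as a black bar and that of all 12565 genes tested as a dashed line; vertical scatter within a list has no meaning. Grey genes did not pass an adjusted p under 0.05, green genes passed with the replicate block only, and *Plk2* and *Tnfrsf10b* (red) passed without and with it.

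Of the 18 targets in metabolism, redox control and secretion, 0 passed over all libraries in limma, and an unadjusted p under 0.05 was reached by 1 that was lower and 2 that were higher, against 11.2% and 9.16% of all genes. The most abundant were *Thbs1*, the gene of thrombospondin 1, with 538 ± 93.8 FPKM in fl/fl and 689 ± 83.7 in SMC-/- cells, and *Ephx1*, an epoxide hydrolase gene, with 378 ± 77.7 and 389 ± 48.3 FPKM (SD, n = 3 each, adjusted p = 0.307 and 0.913 in limma). *Sesn1*, a paralog of *Sesn2*, had 22.7, 10.8 and 11.2 FPKM in fl/fl and 14.4, 5.26 and 6.08 FPKM in SMC-/- replicates 1, 2 and 3. It was highest in replicate 1 of both genotypes and lower in the SMC-/- library of each pair (log2 fold change −0.77, adjusted p = 0.365 in limma, 0.0273 with the block and 0.00210 to 0.679 over the alternatives). *Lif*, the gene of a cytokine, had 2.38, 4.0 and 3.77 FPKM and 6.72, 12.1 and 8.20 FPKM, with no overlap (log2 fold change 1.18, adjusted p = 0.0690 in limma, 0.0201 with the block and 0.00295 to 0.234 over the alternatives).

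*Igfbp3*, the gene of a secreted protein that binds insulin-like growth factors, was named after its values were seen, and it depended on the replicate. It had 0.70, 0.91 and 0.77 FPKM in fl/fl and 1.24, 79.6 and 96.9 FPKM in SMC-/- replicates 1, 2 and 3. It was far higher in SMC-/- replicates 2 and 3, while in replicate 1 it stayed near its fl/fl level. Over all libraries the log2 fold change was 3.86 with an adjusted p of 0.193 in limma, while replicates 2 and 3 alone gave 5.59 and an adjusted p of 0.000000867, in a range of 2.91 to 5.63 and up to 0.479 over the alternatives.

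Of 14 listed paralogs of the members, 13 had an entry and 9 were tested. In limma 0 passed over all libraries (1.21% of all genes were lower and 1.23% higher). An unadjusted p under 0.05 was reached by 0 as well. With the block *Sesn1* was lower and *Sesn3* higher, beside 5.72% of all genes lower and 4.72% higher. *Sesn3*, named after its values were seen, had a log2 fold change of 0.91. Its adjusted p in limma was 0.0239 with the block, 0.413 without it and 0.00185 to 0.736 over the alternatives. The 3 sestrin genes did not share a direction. The most abundant paralogs, *Bak1* and *Cdkn1b*, had 59.7 ± 6.41 and 49.4 ± 3.90 FPKM in fl/fl and 56.5 ± 10.4 and 47.6 ± 24.6 FPKM in SMC-/- cells (SD, n = 3 each), for which limma gave an adjusted p of 0.828 and 0.842. In replicates 2 and 3 alone 4 paralogs were lower and 1 higher, beside 17.2% and 11.9% of all genes. *Cdkn1b* was among the lower ones, at −0.49 in place of −0.16 (adjusted p = 0.0292, the lowest of a range up to 0.975 over the alternatives). *Cdkn1b*, the gene of p27, and *Cdkn1c* belong with *Cdkn1a* to 1 inhibitor family, and *Cdkn1c* was at or below 0.98 FPKM in every library.

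Of 10 other genes of the BCL2 family, 8 were tested and 0 passed over all libraries in limma (1.21% of all genes were lower and 1.23% higher), and an unadjusted p under 0.05 was reached by 0 that were lower and 1 that was higher. In replicates 2 and 3 alone 1 was lower and 0 were higher, beside 17.2% and 11.9%. The lower one was *Bad*, named with its values known, which had 19.9, 33.6 and 30.0 FPKM in fl/fl and 20.4, 21.2 and 18.6 FPKM in SMC-/- cells (log2 fold change −0.42 over all libraries, adjusted p = 0.308 in limma, 0.00558 in replicates 2 and 3 alone and up to 0.620 over the alternatives). The survival genes *Bcl2l1* and *Mcl1* were the most abundant, with 72.7 ± 12.3 and 49.0 ± 4.18 FPKM in fl/fl and 65.9 ± 15.1 and 51.3 ± 3.02 FPKM in SMC-/- cells (SD, n = 3 each). Both overlapped between the groups, and limma gave an adjusted p of 0.754 and 0.816.

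Mitotic genes, which p53 represses through p21 and the DREAM complex, were read as a list of 11. In limma 0 of them passed over all libraries (1.21% of all genes were lower), and an unadjusted p under 0.05 was reached by 1 that was lower and 0 that were higher, against 11.2% and 9.16% of all genes. With the block 1 was lower (5.72% of all genes were), *Cdk1*, named after its values were seen. Its log2 fold change was −0.69. The adjusted p in limma was 0.0488 with the block, 0.186 without it and 0.0466 to 0.439 over the alternatives. All 11 had a log2 fold change below 0, also after rescaling to TPM and after quantile normalization, with a median of −0.48, while 6533 of all 12565 genes were below 0. However, only 3 of the 11 were lower without overlap and 5 were lower in all 3 pairs, beside 15.0% and 29.3% of all genes, and 0 were higher in either count. The summed level of the 11 genes was 249, 161 and 177 FPKM in fl/fl and 168, 155 and 87.8 FPKM in SMC-/- replicates 1, 2 and 3. SMC-/- replicate 3 was the lowest and fl/fl replicate 1 the highest, and without SMC-/- replicate 3 the median was −0.16, with 9 below 0 and 2 above 0. *Top2a* and *Birc5*, the most abundant, had 34.3, 24.1 and 28.0 FPKM and 38.3, 22.2 and 22.9 FPKM in fl/fl, and 23.7, 22.4 and 14.2 FPKM and 18.9, 19.6 and 9.93 FPKM in SMC-/- replicates 1, 2 and 3. Their adjusted p was 0.275 and 0.246 in limma.

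Markers of other cells were read beside the members. Of 5 fibroblast and adventitial markers, *Dpt* was lower, with 144, 90.3 and 65.5 FPKM in fl/fl and 3.31, 1.15 and 0.63 FPKM in SMC-/- cells (adjusted p = 0.00417 in limma). *Dcn*, the most abundant of them, had 13.9, 311 and 257 FPKM in fl/fl and 25.6, 383 and 350 FPKM in SMC-/- replicates 1, 2 and 3. The 5 genes summed to 177, 442 and 361 FPKM in fl/fl and to 41.4, 406 and 370 FPKM in SMC-/- cells, a sum that was low in both replicate 1 libraries through *Dcn*, while *Dpt* was highest there. *Pdgfra* had 18.1, 31.9 and 29.8 FPKM in fl/fl and 11.8, 4.85 and 7.10 FPKM in SMC-/- cells, with no overlap (log2 fold change −1.66, adjusted p = 0.0601 in limma, with 0.000120 to 0.232 over the alternatives). *Pi16* had 1.26, 7.59 and 8.18 FPKM and 0.37, 2.99 and 1.08 FPKM (log2 fold change −1.32, adjusted p = 0.304 in limma, with 0.0127 to 0.574 over the alternatives). *Lum* had 0, 1.31 and 1.17 FPKM and 0.26, 14.5 and 10.4 FPKM (log2 fold change 1.82, adjusted p = 0.342 in limma, with 0.0000740 to 0.673 over the alternatives). For each of these 3 genes, all named after their values were seen, the lowest adjusted p was that of replicates 2 and 3 alone. Their part in the results on the p53 targets was not tested.

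Of 6 endothelial markers, 5 stayed under 1 FPKM in every library, and *Cdh5* and *Tie1* were at or below 0.01 FPKM. *Kdr* was the most abundant, with 0.47, 0.58 and 0.84 FPKM in fl/fl and 0.96, 5.15 and 2.96 FPKM in SMC-/- cells (log2 fold change 1.16, adjusted p = 0.186 in limma, 0.00260 in replicates 2 and 3 alone and up to 0.441 over the alternatives). *Pecam1*, too low to be tested, followed with 0.56, 0.88 and 0.92 FPKM and 0.12, 0.18 and 0 FPKM, and the list summed to 1.30, 1.69 and 1.97 FPKM in fl/fl and to 1.33, 5.41 and 2.99 FPKM in SMC-/- cells. Among 5 leukocyte and macrophage markers *Ptprc* and *Adgre1* were at or below 0.02 FPKM, *Cd68* and *Lyz2* reached at most 4.87 and 4.04 FPKM, and the list summed to 4.94, 8.11 and 8.96 FPKM in fl/fl and to 5.62, 7.70 and 6.67 FPKM in SMC-/- cells. *Csf1r*, which had 0.58, 0.53 and 0.48 FPKM and 1.66, 1.42 and 1.14 FPKM, with no overlap, was named once its values had been seen (log2 fold change 0.65, adjusted p = 0.102 in limma, 0.0192 in replicates 2 and 3 alone and up to 0.292 over the alternatives). *Lyz2* had 1.04, 3.78 and 4.04 FPKM and 1.01, 1.41 and 1.69 FPKM (log2 fold change −0.64, adjusted p = 0.398 in limma, 0.00294 in replicates 2 and 3 alone and up to 0.696 over the alternatives). The 3 adipocyte markers, *Adipoq* and *Plin1* among them, summed to at most 0.09 FPKM. Of the sex-linked transcripts *Eif2s3y* and *Uty* were read, at or below 0.10 FPKM in every library.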

How the data were processed

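RNA-seq of 3 *Smyd2* fl/fl and 3 *Smyd2* SMC-/- libraries was analysed. The series names the BGISEQ-500, while the labels of the samples name an Illumina TruSeq kit and Illumina protocols. The authors used SOAPnuke for filtering, HISAT and Bowtie2 for mapping and RSEM for quantification, and deposited FPKM values of 18112 genes. Tool versions and the genome build are not given in the sources used here. The design gave a test for counts and one for FPKM, and the latter was used. Values were taken to log2(FPKM + 1), a mean of 0.5 FPKM or more was required (12565 genes, all 10 members included), and limma 3.58.1 (R 4.3.3, trend and robust settings) was fitted to the genotypes with Benjamini-Hochberg adjustment over all genes tested and a threshold of 0.05. The fold change of a gene with low FPKM comes out too small on this scale. The fit was tested on simulated data.

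Replicate numbers come from the labels. Deviations from the group means correlated by 0.615, 0.460 and 0.528 across genes in the pairs of replicates 1, 2 and 3. Such deviations cancel out within a group, so that a replicate 1 apart in both genotypes by itself gives positive values for replicates 2 and 3. The check thus bears on replicate 1 only. For replicates 2 and 3 the libraries were paired by the numbers in the labels. Replicate 2 of fl/fl with 3 of SMC-/- gave 0.461 and 3 with 2 gave 0.439, so that numbers 2 and 3 are not told apart by this. A fit with the replicate block was made beside the one without. Other alternatives were a pseudocount of 0.1, no filter, a block for replicate 1, each library left out, replicates 2 and 3 alone, TPM, quantile normalization and the cutoffs that the methods state (fold change over 2, adjusted p below 0.01). Depth was estimated from the FPKM steps of 4336 genes with 1 transcript of known length in GENCODE M21 (GRCm38), where 69.0% to 73.3% of low values lay within 0.15 of a whole fragment and 30% would by chance. It covers counting error only. Positions are those of GENCODE M21 by symbol. In that annotation *Smyd2*, *Cdkn1a*, *Bax* and *Sesn2* each overlap another gene that has no entry in the table, whose fragments could have been counted to them.

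The members and the gene lists were chosen with earlier results of these data known. Genes named in the text are the members and *Smyd2*, from each other list the genes past the threshold (at most 4) and the 2 with the highest mean FPKM, and the 3 genes most like *Trp53* and *Cdkn1a*. Exceptions are said to be so, as are here *Cnn1*, *Smtn*, *Myh11*, *Des*, *Cdkn1c*, *Cdh5*, *Tie1*, *Ptprc* and *Adgre1*, named after their values were seen, and 1 gene of the secreted targets is counted in its list but not reported here. Python 3.11.15, pandas 2.3.3 and scipy 1.17.1 served for all other calculations.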

Additional observations from a re-analysis of the deposited data

How the results depend on the processing

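The log2 fold changes of the 10 members were recomputed under 13 alternatives, 130 values in all, of which 4 had the other direction and 16 passed an adjusted p under 0.05 in limma. *Trp53* and *Bax* stayed below 0 and *Cdkn1a*, *Ccng1*, *Bbc3*, *Eda2r*, *Zmat3* and *Sesn2* above 0 in all 13, while *Mdm2* ran from −0.51 to 0.042 and *Phlda3* from −0.21 to 0.039 with each library left out. *Phlda3* was at 0.055 with TPM. No member passed at the cutoffs of the methods. The numbers of genes past the threshold moved more. For all genes they were 152 lower and 154 higher, and became 719 and 593 with the replicate block, 1398 and 1152 with a block for replicate 1, 2156 and 1494 in replicates 2 and 3 alone, 99 and 247 with TPM (71.4% higher, against 50.3%), and 26 and 27 at the cutoffs of the methods. With each library left out they ran from 16 to 313 lower and from 16 to 373 higher. For the members, 0 lower and 0 higher became 1 and 1 with the replicate block, 1 and 3 with a block for replicate 1, and 2 and 4 in replicates 2 and 3 alone. With a pseudocount of 0.1 there was 1 lower (*Trp53*, adjusted p = 0.0482), with TPM and with quantile normalization 1 higher each (*Cdkn1a*), and with each library left out 0 to 1 lower and 0 to 0 higher, the 1 being *Trp53* without SMC-/- replicate 1 (adjusted p = 0.0470). For the 62 genes of the other 4 pathway lists, 1 lower and 1 higher became 4 and 4 with the replicate block, 6 and 8 with a block for replicate 1, 10 and 12 in replicates 2 and 3 alone, 0 and 4 with TPM, 0 and 0 without the filter, and 0 and 0 at the cutoffs of the methods. With each library left out they ran from 0 to 2 lower and from 0 to 4 higher. By construction fewer samples enter when a library is left out and more genes are tested without the filter, and beyond this the cause was not tested. The replicate block changed no call of the named genes other than those given beside them.

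Other named genes whose direction changed had small differences or, for *Dcn* and *Cdkn1b*, a wide spread. For *Dcn* replicate 1 was 0.0489 times the mean of replicates 2 and 3 in fl/fl and 0.0698 times in SMC-/- cells. Leaving a library out therefore weights replicate 1 unevenly between the groups. *Dcn* was higher in the SMC-/- library of each pair and at 0.37 in replicates 2 and 3 alone. In replicates 2 and 3 alone *Ephx1* was at −0.23, *Bcl2l1* at 0.18, *Mcl1* at −0.051 and *Cd68* at 0.059, and with TPM *Bak1* was at 0.032 and *Cd68* at 0.11. With each library left out *Ephx1* ran from −0.13 to 0.15, *Bak1* from −0.20 to 0.064, *Cdkn1b* from −0.55 to 0.12, *Bcl2l1* from −0.26 to 0.049, *Mcl1* from −0.0039 to 0.11, *Cd68* from −0.15 to 0.14 and *Dcn* from −0.89 to 1.79. *Smtn* ran from −0.20 to 0.072 over all alternatives. With 3 libraries a group, exact permutation tests cannot go below 0.1, and among the members and *Smyd2*, for which fragments were estimated, depth limits mainly *Bbc3* and *Smyd2*. It was not estimated for other genes of low FPKM.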
